A study of Oryza sativa Japonica Group with 18 samples.

Results

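The roots described here were K+-replete control (CK) roots of rice harvested 3 d after the start of the experiment, set against CK roots harvested at 6 h. The members were chosen by their labels alone, as all arrays labelled K+-replete at 3 d or 6 h, and they are 6 of the 18 arrays of the study, 3 at 3 d and 3 at 6 h. All groups shared the cultivar Nipponbare (japonica), hydroponic culture with 12 h of light and 12 h of darkness, and an age of 2 weeks when the treatment began. Seedlings of all groups were transferred when the treatment began. The CK groups went to complete nutrient solution. The low-K+ (LK) groups, used here only for comparison, went to the same solution without potassium sulfate. Each array held root RNA pooled from 5 seedlings, and the 3 arrays of a group were biological replicates on the Affymetrix Rice Genome Array. The solution was renewed every other day and the clock hour of harvest is not given in the sources used here. Root age, time of day, time since the transfer and time since renewal therefore cannot be told apart in this comparison.

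Plants keep time with a circadian clock in which morning-expressed MYB factors (CCA1 and LHY in Arabidopsis, OsLHY in rice) and evening-expressed genes (TOC1, GIGANTEA and PCL1, also called LUX, in Arabidopsis) repress each other, so that their transcripts peak at opposite times of day. Roots possess this clock, and a large part of the plant transcriptome, including genes of light harvesting, sugar and hormone metabolism and water transport, follows it. Roots also change with age as lateral roots emerge, cell walls mature, and defence and transport capacity are adjusted.

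Signals are given in linear units of the array, as deposited. The array medians lay between 22.1 and 23.4, and between 32.7% and 34.7% of the probe sets of an array had a signal under 10. No array was identical to another. Over the probe sets tested, arrays of the same CK group correlated at r = 0.986 to 0.994 and arrays of different CK groups at 0.972 to 0.982. Replicate 1 at 3 d stood slightly apart, with an upper quartile of 124.4 units, the lowest of the 18 arrays. All 8 root markers that could be matched to a probe set were measured on every array, with summed signals of 14360.2 to 15256.8 at 3 d and 14453.3 to 15649.7 at 6 h. Of these, the silicon transporter genes OsNIP2;1 (LSI1) and Lsi2 had mean signals of 4668 and 4314 at 3 d, against 5072 and 4508 at 6 h. OsNAAT1 and OsSHR1 also had lower means at 3 d. OsHAK1, OsAMT1;2, OsSCR1 and OsPIP2;5 had higher means, and OsPIP2;5 was called higher (1327 at 3 d against 885.1 at 6 h). The similar sums thus hold markers that moved in both directions.

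Of 25165 probe sets tested, 3797 (15.1%) differed between 3 d and 6 h in CK roots with limma and Benjamini-Hochberg adjustment, 1487 (5.91%) higher at 3 d and 2310 (9.18%) lower at 3 d. A difference was called at an adjusted p under 0.05. Most of the called differences were small, and 68.4% of them were under 1.5-fold. At least 2-fold differences were called for 159 higher and 195 lower probe sets. The 3 d arrays lay all above or all below the 6 h arrays for 3679 of the called probe sets, beside 7075 (28.1%) of all probe sets tested. The balance of directions depended on the scaling between arrays, which moved the median log2 fold change of all probe sets tested from -0.041 as deposited to -0.005 with quantile normalization and 0.011 with median centring. With these scalings 2066 probe sets were higher and 1975 lower, and 2304 higher and 1758 lower, so that 39.2%, 51.1% and 56.7% of the calls were higher with the deposited scaling, quantile normalization and median centring. Without replicate 1 at 3 d, 1496 were higher and 1622 lower. Counted with 1 probe set a gene, 1008 of 14751 genes (6.83%) were higher and 1525 (10.3%) lower, with a median log2 fold change of -0.04.

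The clock genes included the most strongly changed transcripts. OsLHY, the rice counterpart of CCA1 and LHY, had signals of 729.6, 800.2 and 811.6 at 3 d, against 126.2, 136.5 and 126.9 at 6 h. The groups did not overlap and the mean was 6.01-fold higher at 3 d (780.5 ± 44.5 against 129.9 ± 5.73, SD, n = 3 each; log2 fold change 2.59 ± 0.07 SE, limma adjusted p = 1.16e-13). OsPCL1, named after the Arabidopsis evening gene PCL1, moved the other way, with 33.0, 30.6 and 42.2 at 3 d and 1087, 869.5 and 884.5 at 6 h. It was 26.8-fold lower at 3 d (log2 fold change -4.75 ± 0.13, adjusted p = 1.51e-13). This was the largest fall among the genes with a name, and no 3 d array came near any 6 h array.

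The other evening genes were also lower at 3 d. OsPRR1, the counterpart of Arabidopsis TOC1, had 246.7, 244.1 and 262.4 at 3 d, against 490.3, 455.6 and 495.2 at 6 h, a 1.91-fold difference (log2 fold change -0.94 ± 0.07, adjusted p = 1.64e-07). GI, the rice GIGANTEA gene, had 1619, 1717 and 1647 at 3 d and 2123, 2224 and 2137 at 6 h (log2 fold change -0.38 ± 0.05, adjusted p = 7.83e-05). All 3 evening genes tested thus fell, with a median log2 fold change of -0.94, and they fell whichever of the 6 arrays was left out. The pseudo-response regulators that act earlier in the day changed little. OsPRR73 had 851.1, 924.4 and 918.8 at 3 d and 804.8, 687.7 and 786.6 at 6 h (log2 fold change 0.24 ± 0.08, adjusted p = 0.0366), but a second, dimmer probe set of the gene gave -0.21 (adjusted p = 0.348). OsPRR95 had 234.9, 281.1 and 266.8 at 3 d and 287.7, 330.9 and 300.8 at 6 h, groups that did not overlap (log2 fold change -0.23 ± 0.07, adjusted p = 0.0427). OsPRR37 did not pass the test (log2 fold change -0.20 ± 0.07, adjusted p = 0.0833), but was called lower without replicate 3 at 6 h (-0.25, adjusted p = 0.0416). The calls for OsPRR73 and OsPRR95 rested on single arrays. Without replicate 2 at 3 d, replicate 3 at 3 d or replicate 2 at 6 h the adjusted p of OsPRR73 was 0.105, 0.0976 and 0.179. Without replicate 1 at 3 d, replicate 3 at 3 d, replicate 2 at 6 h or replicate 3 at 6 h that of OsPRR95 was 0.18, 0.065, 0.183 and 0.0669.

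**Figure D1:**
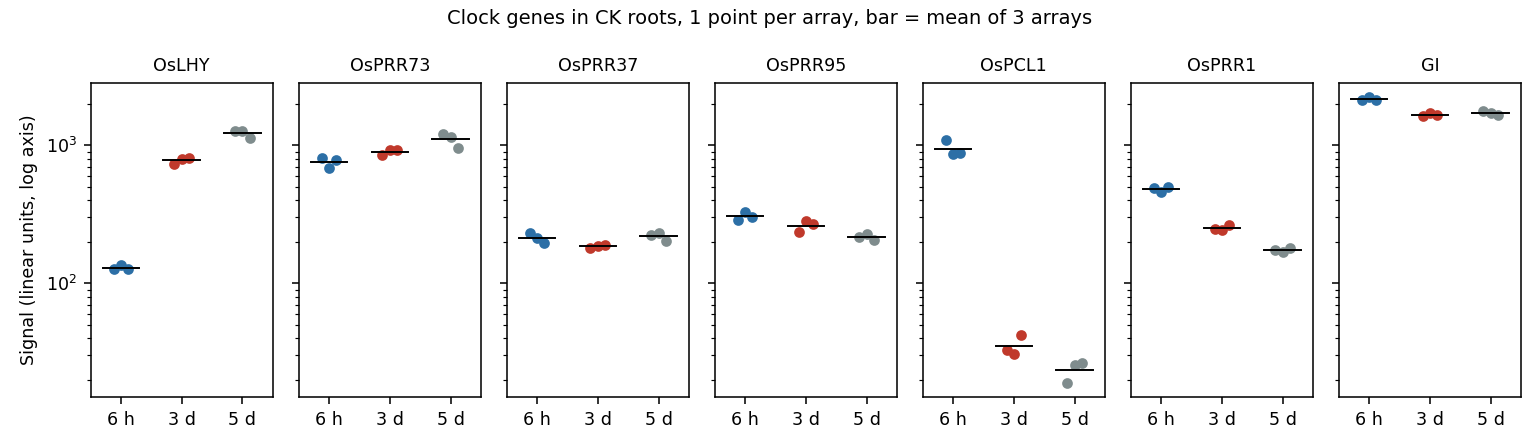
Signals of the clock genes in CK roots at 6 h, 3 d and 5 d (x axis; linear signal units on a log y axis). Each point is 1 array and each bar the mean of 3 arrays. OsLHY lay between 729.6 and 811.6 at 3 d and between 126.2 and 136.5 at 6 h, and OsPCL1 between 30.6 and 42.2 at 3 d and between 869.5 and 1087 at 6 h.

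The 5 d arrays are in no comparison tested here, although they entered the signal filter and the fit that gave the spread for all tests. They lay beyond the 3 d arrays for the strongly changed clock genes. OsLHY had 1270, 1262 and 1129 at 5 d, and OsPCL1 18.9, 25.6 and 26.6. In LK roots, whose arrays are not in the CK means, OsLHY averaged 847.5 at 3 d and 178.7 at 6 h, and OsPCL1 22.7 at 3 d and 804.3 at 6 h. The difference between the LK and CK changes was called for none of the 7 clock genes tested, with a difference in log2 fold change of -0.34 ± 0.09 for OsLHY (adjusted p = 0.0633) and -0.40 ± 0.19 for OsPCL1 (adjusted p = 0.336). Of 10 light receptor and flowering-time genes tested, 1 was called (2 without replicate 3 at 6 h), beside 17.2% called of all genes. The called gene was PhyB, which encodes phytochrome B and had 211.9, 242 and 221 at 3 d and 260.5, 270.5 and 273.6 at 6 h (log2 fold change -0.26 ± 0.06, adjusted p = 0.0122, and 0.0516 without replicate 1 at 3 d).

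Other single genes changed as strongly as the clock genes. OsSAPK9, which encodes an SnRK2 protein kinase activated by osmotic stress and abscisic acid (ABA), had 90.4, 107.8 and 105.7 at 3 d, against 886.9, 853.9 and 877.6 at 6 h. It was 8.62-fold lower at 3 d (log2 fold change -3.11 ± 0.08, adjusted p = 1.42e-13), though its probe set can bind more than 1 transcript. OsBBD1, a bifunctional nuclease gene, had 39.5, 46.0 and 36.8 at 3 d and 393.7, 309.6 and 383.1 at 6 h, an 8.88-fold difference (log2 fold change -3.15 ± 0.18, adjusted p = 2.49e-09). The 5 d arrays gave 15.2, 14.4 and 20.8 for OsBBD1 and 96.3, 97.8 and 87.9 for OsSAPK9, on the 3 d side for both. Genes known only by a locus number were among the largest changes too. LOC4331855 had 19.3, 16.4 and 27.6 at 3 d and 434.3, 358.9 and 351 at 6 h (18.1-fold lower). LOC4348520 had 16.9, 13.0 and 12.7 at 3 d and 223.9, 213.1 and 220.4 at 6 h (15.4-fold lower), and LOC4333719 was 9.81-fold lower. The 3 d signals of LOC4331855 and LOC4348520 were close to the floor of 10 units that was applied before the log transformation, where the array gives little resolution. In the other direction, LOC4333991 had 814.8, 632.4 and 620.6 at 3 d and 134.3, 89.3 and 65.9 at 6 h (7.14-fold higher), LOC4336908 was 6.87-fold higher and LOC4351694 4.81-fold higher. All 6 of these locus-number genes were called in the same direction in LK roots, where 15.1% of all genes tested were higher and 13.2% lower.

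Photosynthesis and chlorophyll genes formed the list with the largest share of rises. Of 22 members, 19 passed the signal filter, and 12 of these were higher (63.2%) and 1 lower (5.26%) at 3 d. Over all genes tested the shares were 6.83% higher and 10.3% lower. The median log2 fold change of the list was 0.92, beside -0.04 for all genes tested. RCABP89, which encodes a chlorophyll a/b-binding protein of the light-harvesting antenna, had 709.4, 572.6 and 411.2 at 3 d, against 112, 75.7 and 61.0 at 6 h. It was the largest rise among the named genes, 6.81-fold (564.4 ± 149.3 against 82.9 ± 26.2, SD, n = 3 each; log2 fold change 2.78 ± 0.24, adjusted p = 5.11e-07). A second antenna gene, RCABP69, was 3.74-fold higher, on a probe set that can bind more than 1 transcript. The brightest, CAB2R, had 4378, 3648 and 3265 at 3 d and 2335, 1851 and 1773 at 6 h, a 1.89-fold difference (log2 fold change 0.92 ± 0.10, adjusted p = 8.24e-06). In each of these 3 genes replicate 1 was the highest array of its group at both times, and the groups did not overlap.

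Several genes of chlorophyll synthesis and of the photosystems also rose. PORB, a protochlorophyllide reductase gene, had 198.9, 184.7 and 160.9 at 3 d and 88.7, 72.1 and 74.9 at 6 h (2.31-fold higher, adjusted p = 4.81e-06, on a probe set that can bind more than 1 transcript). CHLP, which encodes the geranylgeranyl reductase that makes the phytol tail of chlorophyll, was 2.03-fold higher, and GOS5, which encodes subunit H of photosystem I, was 2.33-fold higher. LP02, outside the list and encoding a protein of the oxygen-evolving complex, was 2.15-fold higher. Some dimmer members outside the rule for named genes, chosen after their values were seen, were also higher in their means. CHLH, the magnesium chelatase subunit that commits protoporphyrin to chlorophyll, had 48.5, 57.8 and 41.6 at 3 d and 15.8, 20.7 and 11.8 at 6 h, and OsGLK1, a transcription factor of chloroplast development, 48.2, 41.5 and 36.6 at 3 d and 16.7, 17.8 and 6.57 at 6 h. Others of the same roles, named after their values were seen, were not called. The chlorophyll synthesis genes CHLG and CHL1 averaged 146 and 188.3 at 3 d, against 175.6 and 204.8 at 6 h, and the photosystem II gene PSB28 averaged 42.7 at 3 d and 46.8 at 6 h.

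Enzymes of carbon fixation and photorespiration gave a mixed picture. OsrcaA1, which encodes Rubisco activase, was 1.47-fold higher (552.1 ± 52.1 against 376.1 ± 37.3, adjusted p = 0.00257, on a probe set that can bind more than 1 transcript). OsrbcS, a Rubisco small subunit gene, had 221.3, 317.3 and 50.8 at 3 d and 189.5, 99.5 and 113.5 at 6 h, so that its groups overlapped and it did not pass the test. RBCS1, the other small subunit gene matched, had signals of only 1.4 to 8.44 on the CK arrays and was not tested. The fall in the list was OsGLO5, a glycolate oxidase gene of photorespiration (185.1 ± 7.22 at 3 d against 250.9 ± 8.11 at 6 h, adjusted p = 0.00254). The summed signal of the 6 shoot markers matched was 4481.8 to 6005.7 at 3 d, against 2387.5 to 3146.2 at 6 h, with 5392.9 to 6095.9 at 5 d. These markers include RCABP89, CAB2R, PORB and OsrcaA1, so the sum is no separate measurement, and the part of shoot or greening tissue in these changes was not tested. In RNA from whole roots, fewer cells of a type and less RNA per cell cannot be told apart. The count of rises was 11 to 12 when each of the 6 arrays was left out in turn. In LK roots 13 genes of the list were higher and 2 lower, beside 15.1% higher and 13.2% lower of all genes tested.

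**Figure D2:**
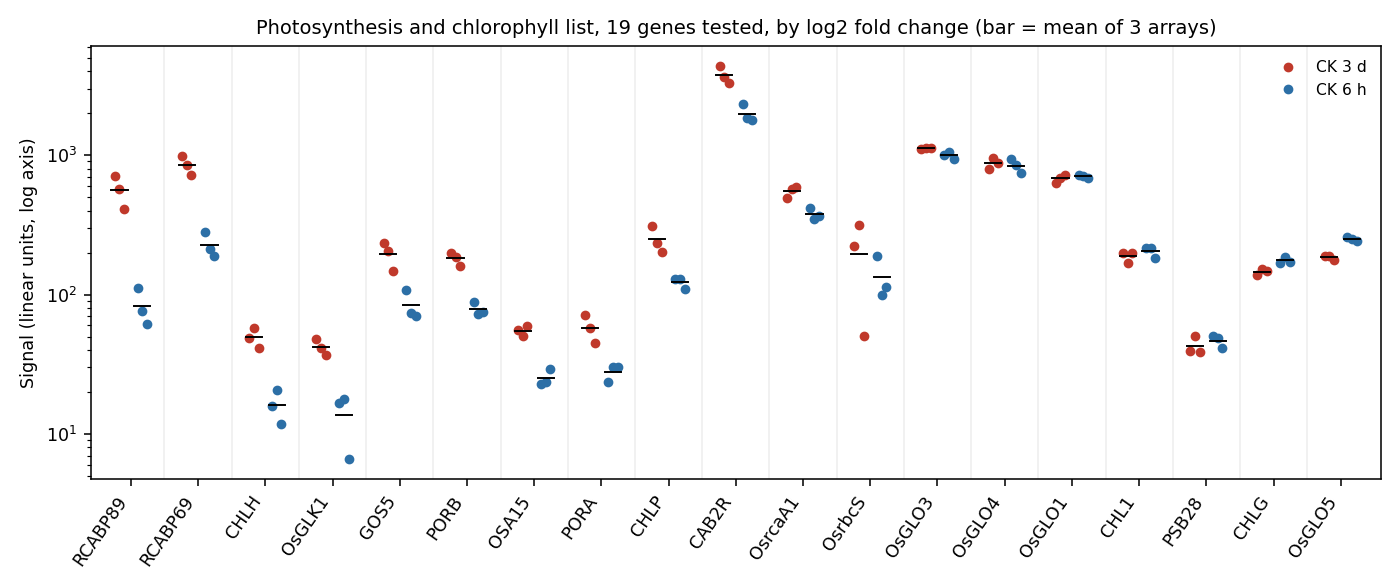
Signals of the 19 genes tested in the photosynthesis and chlorophyll list, CK 3 d left of CK 6 h for each gene (linear signal units on a log y axis; each point is 1 array, each bar the mean of 3). The antenna genes RCABP89, RCABP69 and CAB2R and the chlorophyll synthesis genes PORB, CHLP and CHLH lay higher at 3 d with no overlap, while OsrbcS overlapped.

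Genes of labdane-type diterpenoid synthesis were lower at 3 d. Labdane-related diterpenoids include the gibberellins, growth hormones made by all plants, and in rice also the momilactones and phytocassanes, antimicrobial and allelopathic compounds that roots make and release. Of 25 members of the list, 20 were tested, of which 13 (65%) were lower and none higher by limma (1 higher at an unadjusted p under 0.05). Of all genes 10.3% were lower and 6.83% higher. The median log2 fold change of the list was -1.06. The list was divided by presumed role after its values had been seen, so the counts below depend on where each gene was placed. All 12 tested genes placed in the momilactone and phytocassane branch were lower (log2 fold changes from -2.58 to -0.54, median -1.65). They include OsKO5 (-0.54) and OsKO4 (-1.62), which lie close to OsKO2 (-0.06), a gene placed with the gibberellin genes. Of the 8 genes placed in gibberellin synthesis and signalling, 1 was lower (median -0.02). That gene was gid1, which encodes the gibberellin receptor (1275 ± 14.3 at 3 d against 1625 ± 43.5 at 6 h, adjusted p = 2.34e-05).

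OsCPS4 and OsCPS2 encode the copalyl diphosphate synthases that open the momilactone and the phytocassane pathway. OsCPS4 had 86.5, 111.6 and 72.3 at 3 d, against 205, 283.9 and 368.2 at 6 h (3.17-fold lower, log2 fold change -1.65 ± 0.22, adjusted p = 4.92e-05). OsCPS2 had 36.5, 54.7 and 26.7 at 3 d and 146, 159.2 and 487.9 at 6 h (6.73-fold lower, log2 fold change -2.58 ± 0.55, adjusted p = 0.00361). The groups did not overlap for either gene, but the 6 h arrays spread widely, above all through the high replicate 3 in OsCPS2. Later steps followed. CYP99A2, a momilactone cytochrome P450 gene, had 23.8, 36.9 and 30.9 at 3 d and 81.7, 196.2 and 171.3 at 6 h (4.90-fold lower, adjusted p = 0.000245). OsMAS, momilactone A synthase, was 3.44-fold lower, OsKS3, also called OsKSL7, a phytocassane diterpene synthase gene, 3.31-fold lower and CYP71Z7 3.38-fold lower. The cytochrome P450 gene that RefSeq names CYP76M7 (LOC4341447) had 316.1, 314.6 and 274.4 at 3 d and 961.5, 825.9 and 750.6 at 6 h (2.80-fold lower, adjusted p = 3.49e-08).

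Rice is known for keeping these genes in clusters on the chromosome. In the RefSeq gene order, 5 members of the list lay within 6 consecutive protein-coding genes around OsCPS4, and all 4 of them that were tested were lower. Another 8 members lay within 10 consecutive genes around OsCPS2, and all 5 that were tested were lower. The fall was not limited to them, since OsKO4, a kaurene oxidase-like gene also called CYP701A8, lies outside both stretches and was 3.15-fold lower. LOC4341447 also lies outside them, although the phytocassane gene known as CYP76M7 belongs to the cluster around OsCPS2, so that its place among the genes of this branch rests on its name alone. In LK roots 4 of the 12 genes of the branch were lower at 3 d, beside 13.2% lower of all genes tested in LK roots. The difference between the LK and CK changes, however, was called only for OsMAS (1.33 ± 0.31, adjusted p = 0.0261). The OsCPS2 change was -0.52 ± 0.55 in LK roots and -2.58 ± 0.55 in CK roots, and this difference of 2.06 ± 0.78 was not called (adjusted p = 0.191).

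**Figure D3:**
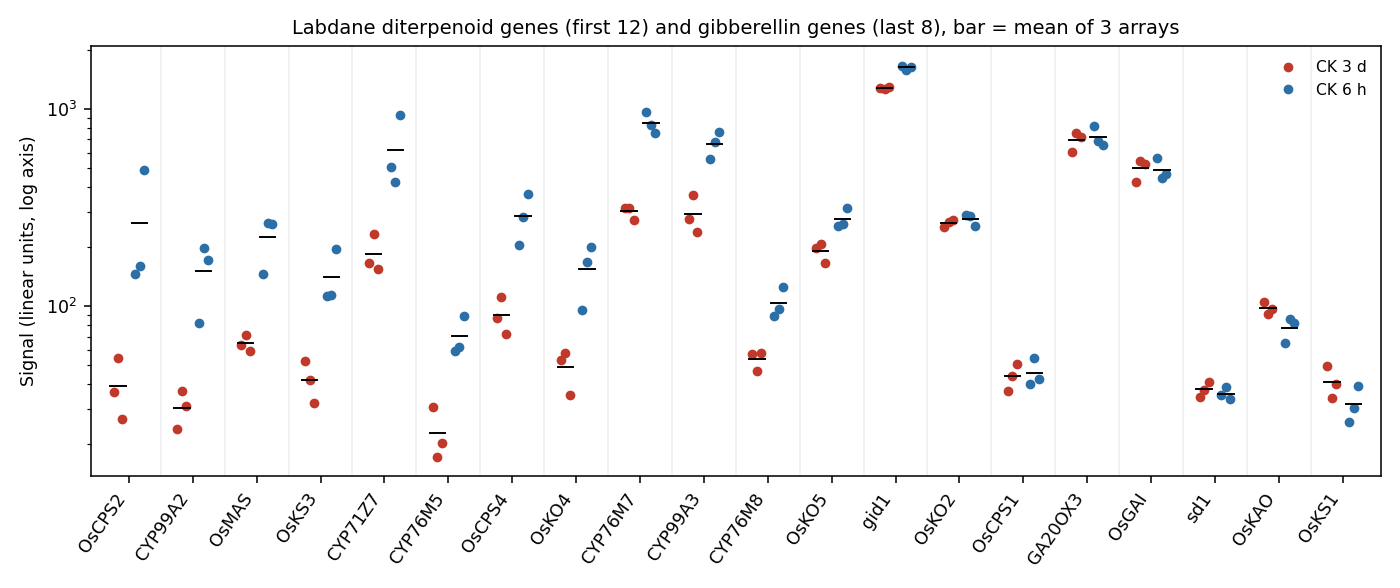
Signals of the 20 diterpenoid genes tested, the momilactone and phytocassane branch (12 genes) before the gibberellin genes (8), with CK 3 d left of CK 6 h (linear signal units on a log y axis; each point is 1 array, each bar the mean of 3). All 12 genes of the first branch were lower at 3 d, and of the gibberellin genes only gid1 was called.

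No jasmonate or defence gene tested was higher at 3 d by limma, also at an unadjusted p under 0.05. Of 34 jasmonate genes tested, 13 (38.2%) were lower at 3 d, beside 10.3% lower of all genes. The median log2 fold change of the list was -0.15, and 13 had a positive log2 fold change that was not called. The lipoxygenase genes LOX8 and LOX9, neighbours on the chromosome whose enzymes oxidise fatty acids, led the list. LOX8 had 28.0, 36.7 and 65.1 at 3 d and 113.7, 101.8 and 102.5 at 6 h (2.45-fold lower, adjusted p = 0.00106), and LOX9 had 40.9, 46.8 and 41.3 at 3 d and 96.7, 115.8 and 125.1 at 6 h (2.62-fold lower, adjusted p = 6.65e-05). OsOPR5, of the oxophytodienoate reductase family, fell by 0.47 on the log2 scale, while a second probe set (-0.37) did not pass the test, and OsTIFY10b, a JAZ repressor gene, fell by 0.25. Some other JAZ genes, named after their values were seen, had higher means at 3 d that did not pass the test. OsTIFY11a had 532.8, 656 and 797.9 at 3 d and 190.9, 390.1 and 632.5 at 6 h (adjusted p = 0.187), and OsJAZ13 611.5, 819.6 and 1035 at 3 d and 274.1, 536.1 and 866.9 at 6 h (adjusted p = 0.268). In both, the groups overlapped, with replicate 1 the lowest and replicate 3 the highest array at 3 d and at 6 h. Of 22 defence genes tested, 10 (45.5%) were lower, with a median of -0.23. OsChia1a, a chitinase gene, had 429.7, 452 and 377.3 at 3 d and 742, 884.5 and 753.9 at 6 h (1.89-fold lower, adjusted p = 7.09e-07). The chitinase gene OsChia2a fell by 0.89, with a dimmer probe set at -0.44 that did not pass the test, and the germin-like genes GLP2 and OsGER6 by 0.77 and 0.62. With each array left out in turn, 10 to 12 jasmonate genes and 8 to 9 defence genes were called lower.

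Several single genes of other pathways were also among the 15 largest falls. LAC15, a laccase gene, had 61.5, 40.9 and 25.2 at 3 d and 129.4, 112.8 and 183.4 at 6 h (3.34-fold lower, adjusted p = 0.000503). OsHsf-03, a heat stress transcription factor gene, had 89.5, 113.7 and 108.3 at 3 d and 295, 268.2 and 235 at 6 h (2.56-fold lower), and the 5 d arrays were lower again at 43.0, 35.4 and 34.6. Of 22 phenylpropanoid genes and laccases, 5 (22.7%) were lower and 1 (4.55%) higher, beside 10.3% lower and 6.83% higher of all genes. The rise was LAC7 (0.40), which lost its call without replicate 2 at 3 d or replicate 3 at 6 h.

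Outside photosynthesis, the rises were spread over transport, cell wall, stress and nitrogen genes. LEA19, a late embryogenesis abundant protein of group 3 that accumulates in drying tissue, had 272.3, 288.6 and 218.9 at 3 d and 63.0, 110.7 and 80.6 at 6 h (3.07-fold higher, adjusted p = 3.94e-06, on a shared probe set). MRS2-A, a magnesium transporter gene, had 152.8, 147.8 and 155.9 at 3 d and 69.5, 57.5 and 71.2 at 6 h (2.30-fold higher, adjusted p = 1.91e-08). OsEXPB7, a beta-expansin gene of cell wall loosening, had 2666, 2550 and 2443 at 3 d and 1357, 1007 and 891.1 at 6 h (2.35-fold higher, adjusted p = 2.94e-06). OsTPP7, a trehalose phosphate phosphatase gene, was 2.60-fold higher with wide spread (169.2, 230.7 and 331.2 at 3 d, 67.6, 89.4 and 124.7 at 6 h, adjusted p = 0.0305). It lost the call without any 1 of 4 arrays (replicates 2 and 3 at 3 d, replicates 1 and 2 at 6 h), with an adjusted p of up to 0.115. OsGLN2, which encodes the plastid glutamine synthetase of nitrogen assimilation, had 809.6, 888.9 and 951.8 at 3 d and 516.3, 447 and 423.4 at 6 h (1.91-fold higher, adjusted p = 5.60e-07). GLT2, a glutamate synthase gene of the same cycle, was higher by 0.76 on the log2 scale, and 3 of the 20 nitrogen genes tested were called in all, near the 17.2% of all genes.

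The nicotianamine synthase genes OsNAS1 and OsNAS2, adjacent and alike in sequence, make the precursor of the iron chelators that grass roots secrete. OsNAS1 had 511.7, 756.5 and 847.5 at 3 d and 278.4, 424.1 and 322.7 at 6 h (2.06-fold higher, adjusted p = 0.0147), and OsNAS2 670.2, 893.6 and 998 at 3 d and 398.5, 555.8 and 378.4 at 6 h (1.92-fold higher, adjusted p = 0.0116). The groups did not overlap, but both calls were marginal. Without replicate 3 at 3 d the adjusted p was 0.0652 for OsNAS1 and 0.0529 for OsNAS2, and OsNAS1 also lost the call without replicate 2 at 3 d (0.0524) or replicate 1 at 6 h (0.0627). At 5 d OsNAS1 had 378.4, 474.1 and 386.2, nearer to the 6 h arrays. Other metal genes were called in both directions. OsZIP4, of the zinc and iron transporter family, was 1.37-fold higher (adjusted p = 0.00125) and OsYSL14, of the family that carries metals bound to nicotianamine, was higher by 0.33 on the log2 scale (adjusted p = 0.0301, and up to 0.136 without replicate 1 at 3 d, replicate 2 at 6 h or replicate 3 at 6 h). Of the same family, OsYSL13 was 2.04-fold lower (92.1 ± 4.43 against 188.2 ± 8.58) and the iron transporter gene OsIRT1 was 1.40-fold lower (adjusted p = 0.0217, and 0.0908, 0.0672 and 0.0583 without replicate 3 at 3 d, replicate 1 at 6 h and replicate 2 at 6 h). Over the 38 metal genes tested, 6 were higher and 6 lower, 15.8% each way beside 6.83% higher and 10.3% lower of all genes. These counts fell to 3 higher without replicate 3 at 3 d, replicate 2 at 6 h or replicate 3 at 6 h and to 3 lower without replicate 1 at 6 h.

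Of 27 cytokinin genes, 6 were higher and 1 lower at 3 d, beside 6.83% higher and 10.3% lower of all genes. OsRR9, a type-A response regulator gene that cytokinin induces, had 1214, 1039 and 993.8 at 3 d and 469.5, 534.7 and 633.9 at 6 h (1.98-fold higher, adjusted p = 6.95e-07). Its relatives OsRR1, OsRR2 and OsRR4 were higher by 0.96, 0.60 and 0.59 on the log2 scale, and LOGL3, of the family that activates cytokinin, was lower by 0.98 at a low signal (35.3 at 3 d and 67.5 at 6 h). Of 19 aquaporin genes, 7 were higher and 2 lower. The plasma membrane water channel gene OsPIP1;3 had 3945, 4060 and 3803 at 3 d and 2774, 2565 and 2604 at 6 h (1.49-fold higher, adjusted p = 1.13e-07), and OsPIP2;5 was higher by 0.58 on the log2 scale. The vacuolar channel gene OsTIP4;1 went the other way, with 1447, 1317 and 1275 at 3 d and 2730, 2495 and 2387 at 6 h (1.89-fold lower, adjusted p = 6.04e-08). With each array left out in turn, 4 to 7 cytokinin genes and 5 to 9 aquaporin genes were higher, and 2 cytokinin genes were lower without replicate 3 at 6 h.

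Of 70 ABA genes 11 were higher and 6 lower, beside 6.83% higher and 10.3% lower of all genes. Beside OsSAPK9, the kinase genes OsSAPK1 and OsSAPK10 fell by 0.86 and 0.74 on the log2 scale, whereas the PP2C phosphatase genes OsPP2C30 and OsPP2C09, of the family that restrains these kinases, were higher by 0.93 and 0.70. OsABF2, a bZIP factor of ABA response, had 959.6, 970.8 and 1049 at 3 d and 596, 534.5 and 569.3 at 6 h (1.75-fold higher, adjusted p = 2.06e-05). It belongs to the list of MYB, bHLH and bZIP factors, of which 9 of 34 were higher and 2 lower. The 2 falls were OsMYB3R-2 (-0.26) and OsbZIP50 (-0.31). OsMYB3R-2 lost its call without replicate 1 at 3 d, replicate 2 at 3 d or replicate 2 at 6 h, and OsbZIP50 without replicate 1 at 3 d or replicate 3 at 6 h, with an adjusted p of up to 0.0686 and 0.0815. OsMYBS3, among the rises (0.31), had a second probe set at -0.27 that was not called. Of 69 calcium sensor and CIPK or CPK kinase genes, 13 were higher and 1 lower, among them OsCIPK14 (0.38), OsCIPK25 (0.59) and OsCK1 (0.64). This count was not stable. It was 7 without replicate 2 at 3 d and 6 without replicate 3 at 3 d, replicate 1 at 6 h or replicate 2 at 6 h.

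Of 21 potassium transporter and channel genes tested, 3 were higher and 1 lower while K+ was present. That is 4 called genes, a share near the 17.2% called over all genes, and each of the calls was under 1.24-fold. OsAKT1, the inward K+ channel of root uptake, had 1149, 1191 and 1221 at 3 d and 1094, 854.8 and 1034 at 6 h (1.19-fold higher, adjusted p = 0.0171, on a shared probe set, and 0.0855 without replicate 2 at 6 h). The high-affinity transporter gene OsHAK1 averaged 2038 ± 49.3 at 3 d and 1940 ± 44.7 at 6 h (adjusted p = 0.248). OsHAK10 (0.23), OsKCO1 (0.30) and OsHAK25 (-0.25) made up the rest of the calls. None of the 3 rises was called without replicate 3 at 3 d or without replicate 2 at 6 h, and the fall of OsHAK25 was lost without replicate 1 or 3 at 3 d or replicate 1 or 2 at 6 h.

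The remaining lists held few calls or calls in both directions, and many of their counts moved with single arrays. Of all genes tested 6.83% were higher and 10.3% lower. Shares higher and lower were 18.2% and 18.2% for sugar, 4% and 16% for auxin, and 10% and 10% for expansin genes. They were 18.2% and 9.09% for heat shock, 6.35% and 3.17% for cell cycle, 6.9% and 13.8% for redox, and 0% and 16% for ribosomal genes. In sucrose, starch and sugar transport 8 of 44 genes were higher, led by the alpha-amylase gene amy2A (60.1 ± 1.44 at 3 d against 22.8 ± 3.38 at 6 h), and 8 were lower. The amy2A signals were low, and its call was lost with a floor of 50 (log2 fold change 0.26, limma adjusted p = 0.0685). With 1 array left out the rises were 2 (replicate 3 at 3 d), 3 (replicate 2 at 3 d, replicate 2 at 6 h) or 5 (replicate 1 at 6 h, replicate 3 at 6 h), and the falls 5 without replicate 1 at 3 d and 4 without replicate 2 at 6 h. Auxin genes were lower in 8 of 50 and higher in 2, with 5 lower without replicate 1 at 3 d, replicate 1 at 6 h or replicate 2 at 6 h. IAA25, a gene of the Aux/IAA repressors of auxin response, had 48.0, 54.2 and 38.5 at 3 d and 89.5, 89.8 and 79.2 at 6 h. Of 50 expansin, xyloglucan transferase and cellulose synthase genes 5 were higher and 5 lower. The rises were 3 without replicate 2 at 3 d and 1 without replicate 3 at 6 h, and the falls 3 without replicate 1 at 3 d, replicate 1 at 6 h or replicate 2 at 6 h. Heat shock genes were 6 higher and 3 lower of 33, with 1 lower without replicate 1 or 2 at 3 d or replicate 2 or 3 at 6 h. Cell cycle, histone and tubulin genes changed in 6 of 63 cases, 4 higher and 2 lower, and KRP6, of the family of inhibitors of cyclin-dependent kinases, was higher by 0.74. Their falls were 1 without replicate 1 at 3 d or replicate 2 at 6 h and 4 without replicate 3 at 3 d or replicate 3 at 6 h. Of 58 redox genes 4 were higher and 8 lower, with 2 higher without replicate 2 at 3 d, 5 lower without replicate 3 at 3 d and 4 lower without replicate 1 at 6 h. Ribosomal protein genes were lower in 4 of 25, in 2 without replicate 2 at 3 d or replicate 1 at 6 h, in 1 without replicate 1 at 3 d and in 0 without replicate 2 at 6 h (9 at an unadjusted p under 0.05 with all arrays).

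The lists below gave few calls in number, beside 17.2% called of all genes tested. Some of them are so small that 1 or 2 calls lie above that share. Of 13 phosphate genes 1 was higher, the phosphate exporter gene OsPHO1;2 (0.27, with a second probe set at -0.25 that was not called), and 1 lower, OsSPX1 (-0.33), of the SPX regulators of phosphate response. OsPHO1;2 lost its call without replicate 2 at 3 d or replicate 3 at 6 h. Of 7 NAC factor genes 2 were higher, OsNAC2 (0.43) and OsNAC6 (0.36), and neither was called without replicate 2 at 3 d or replicate 2 at 6 h. Of 15 ethylene genes 2 were lower, the receptor gene OsERS1 (-0.30) and OsEIN2 (-0.17), a central component of the signal, and none was called without replicate 1 at 6 h. Of 5 phytoene and strigolactone synthesis genes 2 were lower, the carotenoid synthesis genes OsPSY2 (-0.51) and PDS (-0.34). WRKY factors (6 tested), DREB and cold-response factors (11 tested) and class III peroxidases (3 tested) had 1 lower gene each, WRKY51, OsTOE1 and the gene named peroxidase. WRKY51 lost its call without replicate 1 at 3 d, replicate 1 at 6 h or replicate 2 at 6 h, and OsTOE1 without any array other than replicate 3 at 6 h. No HOX factor gene of 22 and no polyamine gene of 3 was called by limma, with 5 and 0 at an unadjusted p under 0.05.

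**Figure D4:**
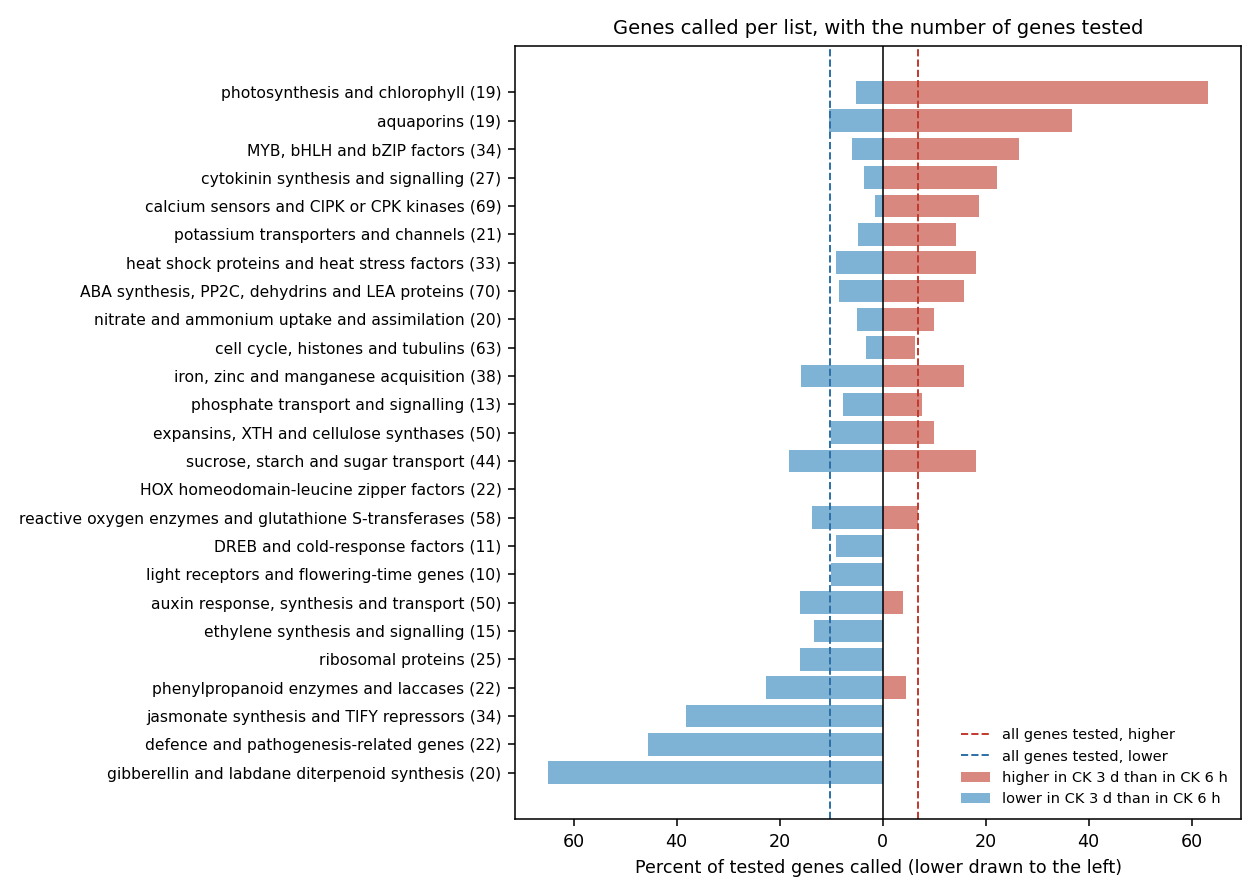
Share of genes called higher (right) and lower (left) at 3 d against 6 h in CK roots, in percent of the genes tested, for the 25 lists with at least 10 genes tested. Dashed lines give the share over all genes tested, 6.83% higher and 10.3% lower. Photosynthesis and chlorophyll has the longest bar to the right and gibberellin and labdane diterpenoid synthesis the longest to the left.

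The same step in time could be read in LK roots, in arrays outside the CK means. The tests are not separate, since all 18 arrays gave 1 shared estimate of the spread for each probe set. In LK roots 6357 probe sets (25.3%) differed between 3 d and 6 h, 3308 higher (13.1%) and 3049 lower (12.1%). Of the probe sets higher at 3 d in CK roots, 72.3% were also higher in LK roots, and these were 32.5% of the LK rises. Of those lower in CK roots, 58% were also lower in LK roots, or 43.9% of the LK falls. Calls in opposite directions were few, 15 higher in CK and lower in LK roots and 45 lower in CK and higher in LK roots. Across the 25165 probe sets the log2 fold changes of LK and CK roots correlated at Pearson's r = 0.705 and Spearman's rho = 0.607. This is a description across probe sets, which are not independent replicates. The difference between the LK and CK changes was itself called for 726 probe sets (2.88%), and for 337 (8.88%) of those called in CK roots. Among the 15 largest rises with a name, 13 were called the same way in LK roots and 2 had a called difference, and among the 15 largest falls 8 and 2.

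Some changes of CK roots had no counterpart in LK roots. OsAPRL1, of the adenosine phosphosulfate reductase-like family, averaged 1942 at 3 d and 1930 at 6 h in LK roots, whereas in CK roots it had 842, 871.2 and 791.7 at 3 d and 2017, 1937 and 1904 at 6 h. The difference in log2 fold change was 1.24 ± 0.07 (adjusted p = 2.37e-08). OsTIP1, a vacuolar aquaporin gene, averaged 1473 at 3 d and 675 at 6 h in LK roots, against 887 at 3 d and 1169 at 6 h in CK roots (difference 1.52 ± 0.13, adjusted p = 2.08e-06). OsPPT3, named as a phosphoenolpyruvate/phosphate translocator gene, averaged 306.3 at 3 d and 234 at 6 h in LK roots, against 139.7 at 3 d and 252.6 at 6 h in CK roots. OsTIP1 and OsPPT3 thus changed in opposite directions in LK and CK roots.

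**Figure D5:**
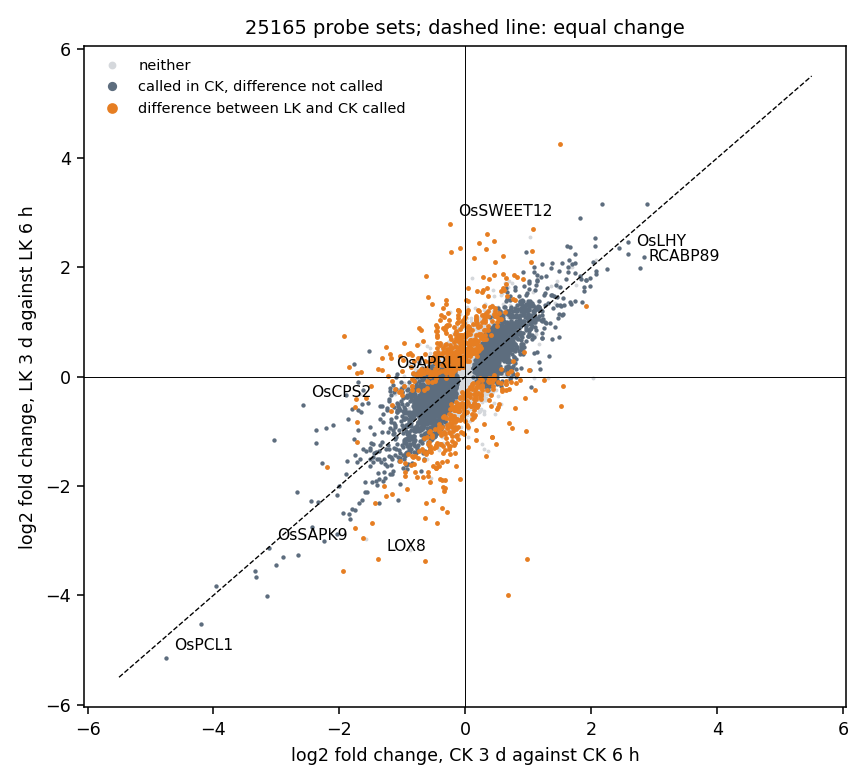
Log2 fold change at 3 d against 6 h in CK roots (x axis) and in LK roots (y axis), 1 point for each of 25165 probe sets. Points in orange are the 726 probe sets for which the difference between LK and CK roots was called, and the cloud follows the diagonal with r = 0.705.

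The 5 d arrays were set beside the 3 d and 6 h arrays, as a description without a test because a comparison of 5 d with 3 d would share the 3 d arrays. The 5 d mean was nearer to the 3 d mean than to the 6 h mean for 1164 of the 1487 probe sets higher at 3 d and for 1417 of the 2310 lower at 3 d. It was so for 13 of the 15 largest rises and for all 15 of the largest falls with a name. The same count was not made over all probe sets tested, so these counts alone do not show that a 3 d level was held. RCABP89 had 700.5, 841.9 and 590.1 at 5 d, OsCPS4 127, 89.9 and 116, and OsRR9 1292, 1240 and 1193, each beside or beyond its 3 d arrays. GLP2 had 3811, 3486 and 3540 at 5 d, between its 3 d arrays (2643, 2616 and 2551) and its 6 h arrays (4681, 4274 and 4341).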

How the data were processed

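Roots of 6 groups (LK and CK at 6 h, 3 d and 5 d) were measured on 18 Affymetrix arrays. The deposited table holds 1 signal intensity per probe set and array for 57194 probe sets, from 0.63 to 18903 on a linear scale. The authors scanned with GCOS 1.0 and MAS5 per the labels and normalized with dChip over all arrays, which ties the signals of the arrays to each other. No detection calls came with the values, the raw files were not used here, and no AFFX probe set was in the table, so RNA degradation was not checked. The number of arrays limits the precision.

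Before the log2 transformation any signal below 10 was set to 10. Tests covered the brightest 44% of the probe sets by mean log2 signal (25165, lowest geometric mean 32.2). The model, limma 3.58.1 in R 4.3.3 with lmFit and a trended eBayes prior (5.03 prior beside 12 residual degrees of freedom), was fitted to all 18 arrays in 6 groups, with contrasts of 3 d minus 6 h in CK and in LK roots and their difference. Benjamini-Hochberg adjustment of the p-values ran over all tested probe sets of a contrast. Fold changes are ratios of mean linear signals. In simulated data 93% of changes of 1 and 52% of changes of 0.5 on the log2 scale were called (100 probe sets each). The unchanged rest of the 25165 probe sets gave 7 false calls. Far fewer probe sets were changed there than were called in CK roots (15.1%), so these shares do not carry over to the real comparison. The median SD of log2 signals was 0.12 at 3 d and 0.121 at 6 h.

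Probe sets were named through the platform annotation and RefSeq (assembly ASM3414082v1, for names and gene order only). Of all probe sets, 22436 had 1 gene, 95 several and 34663 none, and 2455 of 17905 genes had a name other than a locus number. Probe sets of the x_at and s_at types can bind several transcripts. A gene was represented by its brightest probe set, and 32 gene lists were described by counts and medians. Named genes were the clock, light receptor and tissue marker lists, the 15 largest rises and 15 largest falls of genes with a name and the 3 and 3 of genes with only a locus number (called, arrays not overlapping, signal of at least 100), up to 4 called members a list and direction by adjusted p, and the 5 with the smallest adjusted p in the difference between LK and CK. The members and lists were chosen with earlier results of these data known. Patterns that matched unrelated genes were trimmed by name. Alternatives were the filter, scaling, floor, arrays in the fit, replicate block, intensity trend, thresholds and each replicate left out.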

Additional observations from a re-analysis of the deposited data

Results flagged for a closer look

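Of the 169 named genes, 25 had a called difference between the LK and CK changes at 3 d against 6 h. The adjusted p of limma's test of this difference lay between 2.37e-08 and 0.0445 for them. Of all 14751 genes tested, 516 had a called difference, and of all probe sets tested 2.88%. Genes with the smallest adjusted p in this same test were named by rule, so part of the 25 was fixed by that choice. Values are the difference in log2 fold change, LK minus CK. They add starvation to the passage of time, and no cause was tested.

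In 11 of these genes the difference was positive with a fall or no call in CK roots. They were OsMAS (1.33), PHYA (0.33), OsSWEET14 (0.67), OsTIP1 (1.52), LAC19 (1.53), LOGL3 (1.59), OsHSF6 (0.49), OsMT-2 (0.50), OsAPRL1 (1.24), OsSWEET12 (3.03) and OsPPT3 (1.24), and of these OsTIP1, LOGL3 and OsPPT3 were called in opposite directions in LK and CK roots. OsSWEET12, a sugar transporter gene, averaged 198 at 3 d and 28.8 at 6 h in LK roots, against 26.0 at 3 d and 30.6 at 6 h in CK roots. LOGL3 averaged 104.7 at 3 d and 68.6 at 6 h in LK roots, against 35.3 at 3 d and 67.5 at 6 h in CK roots.

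The small heat shock protein genes OsHsp16.0 (1.63), OsHsp17.9A (0.84) and OsHsp24.1 (0.99) and the tubulin gene TUB7 (0.27) were higher at 3 d in both, by more in LK roots. OsHsp24.1 averaged 747.7 at 3 d and 306.9 at 6 h in LK roots, against 380.2 at 3 d and 309.9 at 6 h in CK roots.

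Genes lower at 3 d in both fell further in LK roots, with LOX8 at -1.95, OsAMT3;3 at -1.12, OsTIP4;1 at -0.50, LAC24 at -0.76, GLP2 at -1.07 and OsGER6 at -0.80. GLP2 averaged 1194 at 3 d and 4258 at 6 h in LK roots, against 2603 at 3 d and 4432 at 6 h in CK roots. LOX8 averaged 11.5 at 3 d in LK roots, near the floor of 10.

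The rises of CK roots were smaller or not called in LK roots for OsNAS2 (-1.33), OsGLN2 (-0.48), OsAKT1 (-0.44) and myb17 (-0.60). OsNAS2 averaged 449.8 at 3 d and 575.4 at 6 h in LK roots, against 853.9 at 3 d and 444.2 at 6 h in CK roots.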

How the results depend on the processing

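In CK roots the 3797 differences became 2115 (917 higher, 1198 lower) when only the 6 arrays compared were fitted, and 354 (159 higher, 195 lower) at a ratio of at least 2. Median centring gave 2304 higher. With each replicate left out in turn, the CK count was 2776 to 3494 (1062 to 1496 higher, 1612 to 2300 lower), the LK count 4909 to 5717 and the count of differences between LK and CK 500 to 792. The LK count was 699 at a ratio of 2. The 726 differences between LK and CK became 469 without the signal filter, 453 with only the arrays compared, 166 at a ratio of 2 and 2969 at a ratio of 1.2 with an unadjusted p. The labels give the replicate numbers no shared meaning, and the data did not settle whether they pair the arrays: same-numbered 3 d and 6 h arrays correlated at 0.178, 0.215 and 0.038, and replicate 3 at 3 d correlated best with replicate 2 at 6 h (0.273). With the replicate number as a block the counts in the fit to all 18 arrays were higher, with 4759 called in CK roots (1938 higher, 2821 lower), 7273 in LK roots and 1030 for the difference. With only the arrays compared these were 2539 (1152 higher, 1387 lower), 5575 and 606. The other settings kept the counts within 1.5 times. With only the brightest 30% of probe sets, 138 of the 169 named genes were tested. Over 2842 combinations of a named gene and a setting, 2573 were unchanged, 266 were no longer called, 3 were newly called and 0 changed direction. Of 151 called genes, 100 kept the call in every setting in which they were tested. The cause of these shifts was not tested. Signals near the floor of 10 and probe sets without a gene limit what low transcripts can show. In the simulated data, fits of 3 arrays a group missed many changes of 0.5 on the log2 scale.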
